A study of Mus musculus with 4 samples.

Results

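Calb2, Calcrl, Csf2rb2 and Ajap1 are genes used to mark hilar mossy cells, and their levels were read from arrays of whole mouse hippocampus. They were taken by symbol, with every non-control probe that carries one of these names, and make up 4 of the 37062 genes on the array. Together they have 7 probes: 3 for Calb2, 1 for Calcrl, 1 for Csf2rb2 and 2 for Ajap1. Of these, 6 were well above background on all 4 arrays, and 1 Calb2 probe was not well above background on any.

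The study compared wild-type (WT) mice with Rp58 hetero-KO mice, which have 1 intact allele of Rp58 (gene symbol Zbtb18), a zinc-finger transcriptional repressor of developing and adult forebrain neurons. The 4 groups were WT and hetero-KO mice aged 4 months, called young here, and WT and hetero-KO mice aged 18 months, called old; 1 label field of the older samples gives a range of ages that ends at 18 months. Neither strain, sex nor the design of the deleted allele is given in the labels, and all groups were kept on the same light cycle. RNA of 3 samples was mixed for each group and hybridised to 1 single-colour array, so each group has 1 value, the differences between 2 arrays have no replicate check, and the spread between mice is not known.

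Mossy cells are large glutamatergic neurons of the dentate hilus. Granule cells excite them through mossy fibre synapses, and they in turn send axons to the inner molecular layer of the dentate gyrus on both sides of the brain, where they contact granule cells and interneurons. They are known for their loss after seizures and ischaemia. None of the 4 genes is restricted to these cells. Calretinin, the protein of Calb2, is also made by Cajal-Retzius cells, immature granule neurons and a class of interneurons, among other cells. Calcrl is also expressed by blood vessels. In a bulk sample, fewer cells of a type and less RNA per cell cannot be told apart.

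The results turn on Calb2, and its 2 measured probes, both in the coding sequence, are shown because they lie in different parts of the transcript. On the array's annotation (mouse build mm9, minus strand), A_52_P556433 lies at chr8:112678555-112678614. A_51_P311436 spans chr8:112667073-112669583, a stretch longer than the 60-base probe, so it crosses an exon junction. Both are written 5′ to 3′ in lower case, with no base singled out.
A_52_P556433: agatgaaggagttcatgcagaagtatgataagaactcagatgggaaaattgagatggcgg
A_51_P311436: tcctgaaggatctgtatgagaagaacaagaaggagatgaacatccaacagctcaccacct
The third Calb2 probe, A_55_P2729483 at chr8:112661422-112661481, is the one that was not well above background. The other members' probes are given by position only: Calcrl by A_51_P225186 at chr2:84171069-84171128, Csf2rb2 by A_51_P146753 at chr15:78113126-78113185, and Ajap1 by A_52_P620898 at chr4:152747397-152747456 and A_55_P2032643 at chr4:152756374-152756433, all on the minus strand.

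A level here is a probe's processed signal divided by the 75th percentile of its array, and a difference is a difference of log2 levels. The scanner's own error of a spot gives each difference between 2 arrays an error of about 0.20 (log2), which covers the measurement of the spot and not the mice. The 75th percentile lay between 1714 and 2111 signal units, 77.9% to 81.9% of spots were well above background, and no spot was saturated. Zbtb18 itself read 17.5 in young WT, 15.2 in young hetero-KO, 18.9 in old WT and 21.4 in old hetero-KO, so its probe did not separate the genotypes in the same direction at both ages; whether it lies in the deleted part is not stated. All 4 arrays were on 1 slide, and array position and group cannot be told apart.

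The pools also differed in ways that the genotype and age labels do not name. Of 9 striatum markers, all 9 were higher in hetero-KO than in WT at 4 months and 5 were called at 2-fold. Over all genes 1.33% were called, in either direction. The summed level of these markers was 48.8 against 20.8. Of 11 thalamus and habenula markers, 10 fell with age by limma's test, as 0.665% of all genes did, and the list had a median of -2.40. The Y-linked genes Ddx3y, Eif2s3y and Uty were well above background on the other 3 arrays and not on that of hetero-KO at 4 months, while Xist was well above background at 4 months only. Sex-linked genes thus differed between the pools in the 4-month genotype comparison and in both age comparisons. In these, sex cannot be told apart from genotype or from age. The part of tissue make-up and sex in the differences below was not tested.

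Calb2 encodes calretinin, a cytosolic calcium-binding protein with EF hands that buffers calcium in neurons. Its level, read with A_51_P311436, was 0.153 in young WT, 0.131 in young hetero-KO, 0.197 in old WT and 0.0381 in old hetero-KO. A_52_P556433 read 0.0801, 0.0721, 0.119 and 0.0241 on the same arrays in that order. Both probes were lowest in old hetero-KO and highest in old WT, with the young genotypes between them. At 18 months Calb2 was 5.16-fold lower in hetero-KO than in WT, a log2 difference of -2.37 with a spot error of 0.21, and A_52_P556433 gave 4.92-fold. Of the 4 members Calb2 alone was called at 2-fold in this comparison, in which 1.15% of 27420 genes were called in either direction and 0.616% were called lower. Counting Calb2 itself, 15 genes had a difference at or below its own. With another background correction (normexp) the difference was -1.66. At 4 months the difference between the genotypes was -0.22 for A_51_P311436 and -0.15 for A_52_P556433, near the spot error of 0.20 and 0.21, and none of the 4 members was called where 1.33% of genes were.

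**Figure D1:**
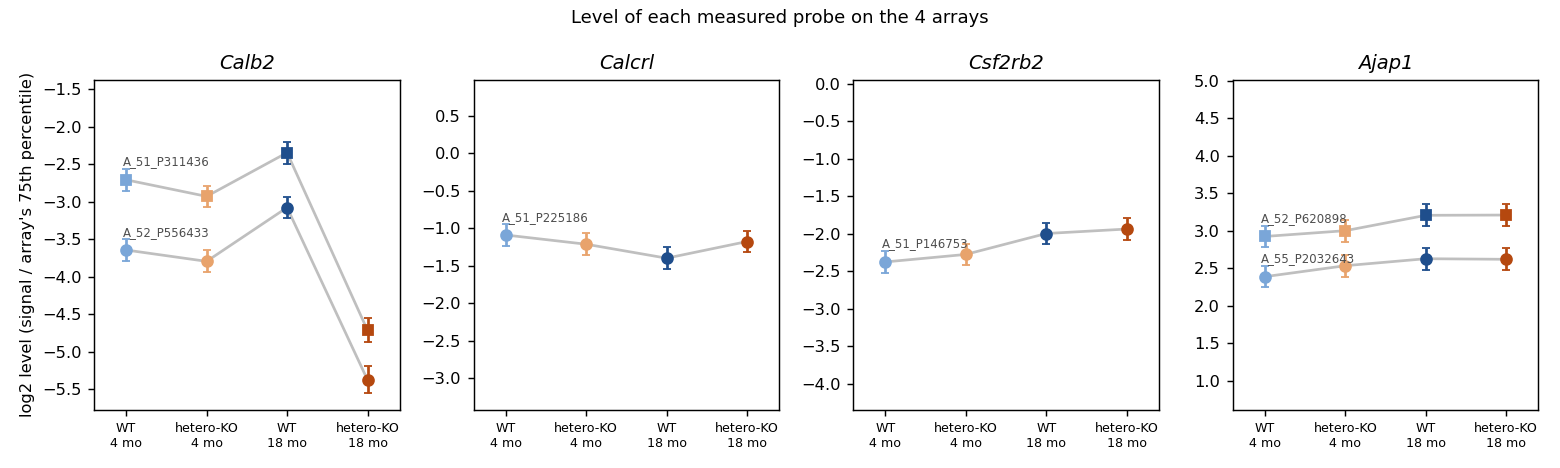
Each panel gives the log2 level (signal over the array's 75th percentile) of every measured probe of a gene on the 4 arrays, with bars for the scanner's spot error; all panels span the same range. Both Calb2 probes are low in hetero-KO at 18 months, at levels of 0.0381 and 0.0241 before log2. No other probe shown moves by more than 0.44 (log2) over the arrays.

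With age, Calb2 went in opposite directions in the genotypes by either measured probe, but not where its 3 probes, the dim one included, were averaged, which gave -0.13 in WT. Its 18-month level was 1.29-fold higher than its 4-month level in WT, a difference of 0.36, and 3.45-fold lower in hetero-KO, a difference of -1.78. In WT none of the 4 members reached 2-fold, where 1.6% of genes did. In hetero-KO Calb2 was the 1 member that did, against 2.2% of genes in either direction and 1.09% lower, and 80 of 27400 genes lay at or below it. The genotype difference at 18 months less that at 4 months was -2.15 for both probes, a value with no test because no array is left to estimate its error. In limma's additive fit over the 4 arrays, which takes such a change with age as error, the genotype difference of Calb2 was -1.29 ± 0.51 (SE; adjusted p = 0.442) and its age difference was -0.71 ± 0.51 (adjusted p = 0.460).

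These values come from the scanner files, and the authors' deposited table does not show the same. Its 4-month columns follow the scanner files with a correlation of log2 values of 1, but no scanner file corresponds to the 18-month columns, whose highest correlation with any of the 4 was 0.985. In the authors' deposited table Calb2 was 0.152 in young WT, 0.131 in young hetero-KO, 0.0610 in old WT and 0.0624 in old hetero-KO, so that the genotypes differed by 0.033 (log2) at the older age. Both 18-month values there were lower than at 4 months, with differences of -1.32 in WT and -1.06 in hetero-KO. Which RNA the 18-month columns of that table hold is not settled, and the low Calb2 of old hetero-KO mice rests on 1 scanner file.

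**Figure D2:**
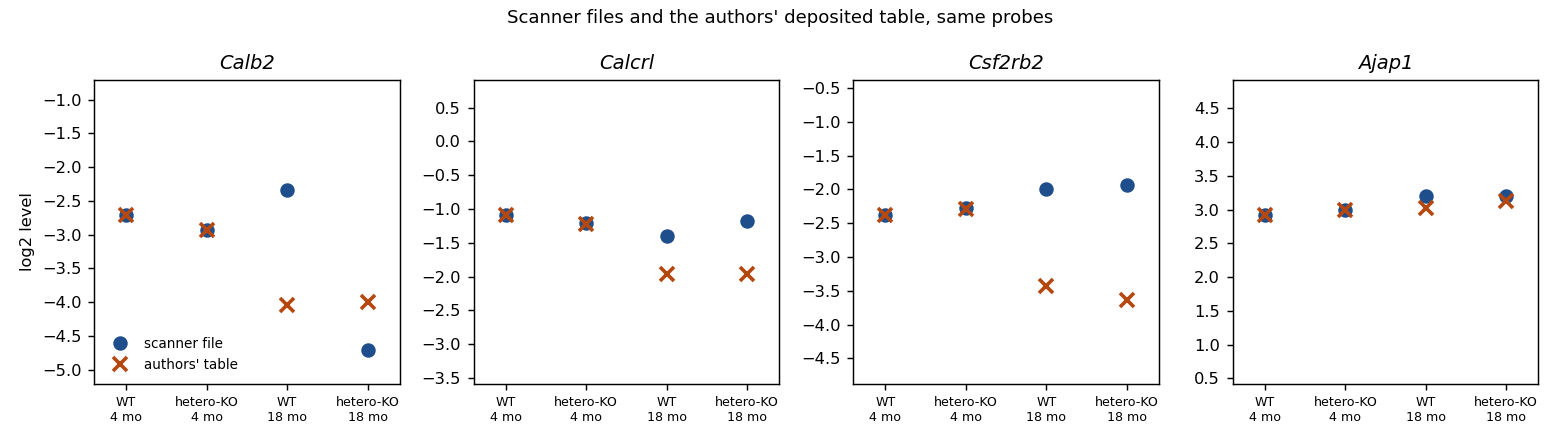
Log2 levels of the probe used for each gene, from the scanner files (circles) and from the authors' deposited table (crosses), on the 4 arrays. The sources coincide at 4 months. At 18 months they part for Calb2, Calcrl and Csf2rb2. Before log2, the 18-month levels of Ajap1 are 9.22 and 9.24 in the scanner files and 8.12 and 8.71 in the authors' deposited table.

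Calcrl encodes the receptor that, with a RAMP partner, binds CGRP or adrenomedullin. Its level was 0.471 in young WT, 0.432 in young hetero-KO, 0.380 in old WT and 0.443 in old hetero-KO. The 4 values lay within 0.31 (log2) of each other, and WT at 18 months was the lowest. Its genotype difference was -0.12 at 4 months and 0.22 at 18 months, and its age difference was -0.31 in WT and 0.04 in hetero-KO, each with a spot error of 0.20. Over the 4 arrays the genotype difference was 0.05 ± 0.10 (SE; limma, adjusted p = 0.862) and the age difference -0.14 ± 0.10 (adjusted p = 0.486). In the authors' deposited table it was 0.468, 0.430, 0.258 and 0.255 in the same order.

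Csf2rb2 encodes the mouse receptor subunit for interleukin-3 that is related to the common beta chain of Csf2rb. It read 0.193 in young WT, 0.207 in young hetero-KO, 0.251 in old WT and 0.261 in old hetero-KO. Both 18-month arrays were above both 4-month arrays, by 0.38 in WT and 0.34 in hetero-KO, while the genotypes differed by 0.10 and 0.06. The age difference was 0.36 ± 0.08 (SE) and did not pass limma's test after adjustment (unadjusted p = 0.00663, adjusted p = 0.0851). At an unadjusted p under 0.05 this test had 4861 of 28855 genes higher at 18 months and 1984 lower. The genotype difference of Csf2rb2 was 0.08 ± 0.08 (limma, adjusted p = 0.689). The authors' deposited table gives the age difference the other way, with 0.192 and 0.205 in the young pools but 0.0927 and 0.0806 in the old ones, WT first.

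Ajap1 encodes a transmembrane protein found at adherens junctions and at synapses, where it binds GABA-B receptors. A_52_P620898 read 7.58 in young WT, 7.99 in young hetero-KO, 9.22 in old WT and 9.24 in old hetero-KO. A_55_P2032643 read 5.23, 5.78, 6.17 and 6.14 in the same order. Both probes had their lowest value in WT at 4 months and nearly equal values in the old genotypes, which differed by 0.00 and -0.01. The age difference of A_52_P620898 was 0.25 ± 0.04 (SE) by limma (unadjusted p = 0.00307, adjusted p = 0.0640), and 3718 of 28855 genes lay at or above it. Between 2 arrays it was 0.28 in WT and 0.21 in hetero-KO. A_55_P2032643 gave 0.24 and 0.09, and each of these differences had a spot error of 0.20. The genotype difference of A_52_P620898 was 0.04 ± 0.04 (limma, adjusted p = 0.726).

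Over the 4 members, then, none passed limma's threshold of an adjusted p of 0.05 for genotype, which 0.0104% of 28855 genes passed, 3 of them in all. At an unadjusted p under 0.05 the same fit had 1492 genes higher and 1817 lower in hetero-KO. None passed for age either, where 1.57% of genes rose and 0.665% fell. Calb2 had the largest standard error among the 4, 0.51 against 0.04 to 0.10 for the others, because its genotype difference was not the same at both ages. The median genotype difference of the 4 members at 18 months was 0.03, against -0.01 over all genes. Of the 4, 3 were above 0, Ajap1 by only 0.003, where 48.0% of all genes were above 0.

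**Figure D3:**
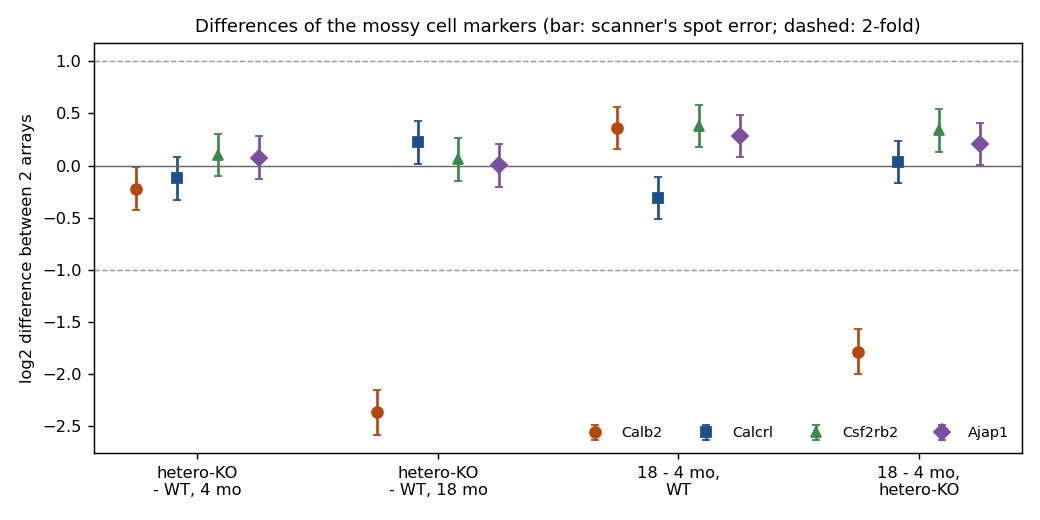
Log2 differences of the 4 genes in the 4 comparisons of 2 arrays, with bars for the scanner's spot error and dashed lines at 2-fold. Calb2 passes 2-fold lower for hetero-KO against WT at 18 months (-2.37) and for 18 against 4 months in hetero-KO (-1.78); the other points lie within 0.38 of 0.

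Other genes used to mark or reported for mossy cells were read beside Calb2. Of Drd2, Gria2, Gria3, Rgs12, Tm4sf1, Ociad2 and Sv2b, 7 genes all well above background on every array, none was called in any comparison, and their median difference between the genotypes was 0.17 at 4 months and 0.04 at 18 months. From here on, 4 levels of a gene stand in the order young WT, young hetero-KO, old WT, old hetero-KO. Drd2, the dopamine D2 receptor, was dim, with levels of 0.0396, 0.0575, 0.0358 and 0.0297, and it is a striatum marker too. Ociad2 was higher in hetero-KO at both ages, with levels of 8.57, 10.8, 9.24 and 11.9, and a genotype difference of 0.35 ± 0.04 (SE) that did not pass limma's test (adjusted p = 0.147). Gria2 and Gria3, AMPA receptor subunits of most excitatory neurons, differed between the genotypes by -0.06 and 0.09 at 18 months.

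Markers of other cells that make calretinin differed within each list. Of 8 Cajal-Retzius markers, 7 could be compared at 18 months, and 3 of them, all transcription factors, were called lower in hetero-KO. Over all genes 0.616% were called lower. Lhx1 read 0.137, 0.159, 0.135 and 0.0569, and Lhx5 0.0763, 0.0981, 0.0409 and 0.0167. Ebf3 read 0.197, 0.171, 0.530 and 0.0811, a difference of -2.71 between the old genotypes, and old WT lay 1.43 (log2) above young WT. Ebf2 read 0.0163, 0.0150 and 0.0884 on the first 3 arrays, again highest in old WT. It was not well above background in old hetero-KO and had there a level at least 10.7-fold lower than in WT, where the bound sets its level in WT against the dimmest signal that counts as above background. Reln, which encodes the secreted protein reelin, and Trp73, a transcription factor of the p53 family, were not called, with differences of 0.12 and -0.21. The summed level of the list was 2.93, 3.44, 3.11 and 2.49, with the largest share from Reln at 1.82, 2.21, 1.51 and 1.65. The part of these cells in the Calb2 result was not tested.

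Of 6 progenitor and immature granule neuron markers measured on both old arrays, 1 was called lower in hetero-KO, where 0.616% of all genes were. It was Igfbpl1. This secreted protein of young neurons read 0.109, 0.117, 0.175 and 0.0264, a difference of -2.73 at the older age. Eomes, a transcription factor of intermediate progenitors and of olfactory bulb neurons, read 0.0214 in young WT, 0.0227 in young hetero-KO and 0.143 in old WT, and was not well above background in old hetero-KO. It was thus not open to a call, and its level there was at least 17.3-fold lower than in old WT, the highest of the 4 arrays. The other members measured, Dcx, Neurod1, Sox11, Dpysl3 and Tubb3, differed by -0.13 to 0.20 at 18 months, and Draxin was not well above background on any array. Summed levels were 12.0, 14.0, 11.0 and 11.4. Most of each sum came from Tubb3 (5.73, 6.82, 5.22 and 5.99) and Dpysl3 (3.75, 4.62, 3.22 and 3.29), and little from the dimmer Igfbpl1 and Eomes. Of 8 GABA interneuron markers none was called at 18 months, with a median of -0.02 and summed levels of 92.2 in old WT and 92.3 in old hetero-KO. Most of these sums came from Sst, Lhx6 and Slc32a1. Htr3a and Vip had the largest differences, 0.38 and 0.30, while 5 of the 8 were below 0. The list is not restricted to the interneurons that make calretinin. Slc17a6, a vesicular glutamate transporter on the thalamus and habenula list, was called lower in 18-month hetero-KO, by 1.23 on the log2 scale. Shox2 of the same list was called higher, by 1.29, and 8 of the 10 markers of this list measured there were above 0. Over all genes 1.15% were called in either direction. Of the olfactory bulb markers, a list that also holds Eomes, 4 of the 5 measured on both old arrays were below 0, with a median of -0.38. Whether any of these cell types takes part in the Calb2 difference was not tested.

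The 5 genes whose pattern over the 4 arrays was closest to that of Calb2 were Igfbpl1, Magel2, Sfta3-ps, Six3os1 and Ngb. They were ranked among 19184 named genes by the root mean square difference of centred log2 levels, which was 0.17 for Igfbpl1 and 0.32 for Ngb, the fifth. Each was lower in hetero-KO than in WT at 18 months, by 1.71 (Six3os1) to 2.73 (Igfbpl1) on the log2 scale, as the ranking required. Magel2, an imprinted gene, read 0.179, 0.201, 0.238 and 0.0632. Ngb, which encodes neuroglobin, an oxygen-binding globin of neurons, read 0.0593, 0.0445, 0.0846 and 0.0235. With 4 arrays such likeness is a description, and the part of tissue make-up in it was not tested. The other 3 members varied by less than 1 (log2) over the arrays and were not ranked.

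**Figure D4:**
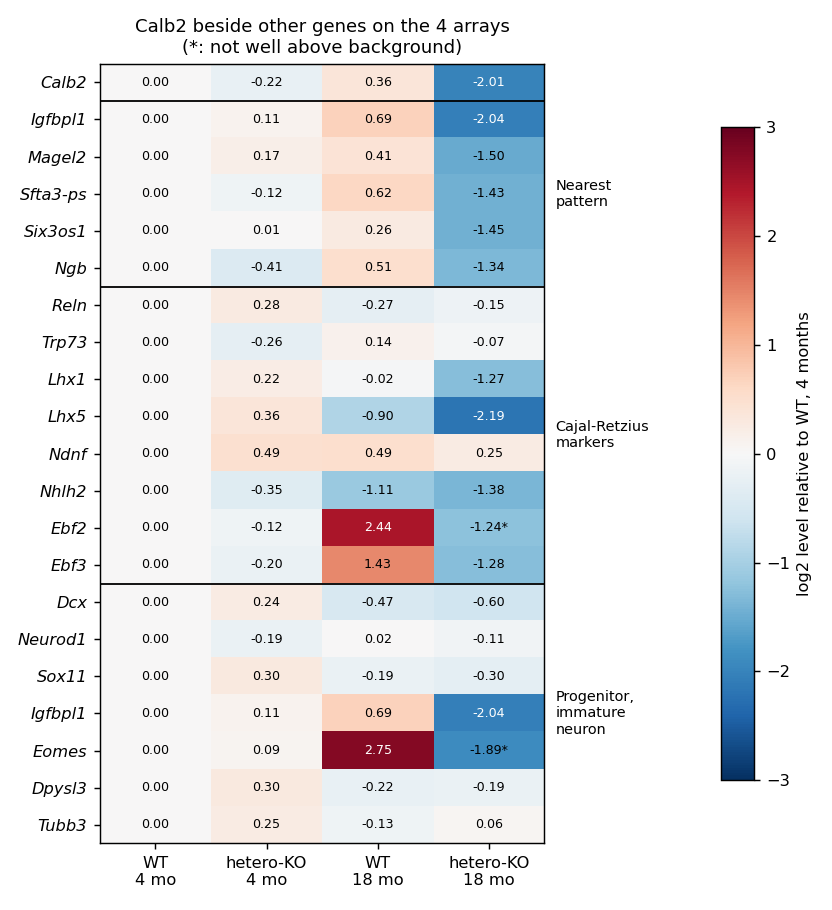
Log2 levels relative to WT at 4 months for Calb2, the 5 genes nearest in pattern, 8 Cajal-Retzius markers and the 7 progenitor and immature neuron markers measured on any array; columns are the 4 arrays, and a star marks a value not well above background. Igfbpl1, Ebf2, Ebf3 and Eomes share with Calb2 a high value in WT and a low value in hetero-KO at 18 months, while Reln, Trp73 and Dcx differ between the old genotypes by 0.12, -0.21 and -0.13.

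Among calcium-binding relatives of calretinin, none of 5 measured genes was called between the genotypes at 18 months. Calb1, which encodes calbindin and is abundant in granule cells, read 8.34, 8.32, 9.16 and 7.59. Pvalb, the parvalbumin of fast-spiking interneurons, fell with age by 0.47 ± 0.04 (SE, log2; adjusted p by limma = 0.0342), and Necab3 by 0.41 ± 0.05 (adjusted p = 0.0489). These were 2 of 6 genes tested, against 0.665% of all genes that fell, and none of the 6 rose by this test.

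The ligands and partners of Calcrl were read next. Calca, which encodes CGRP and calcitonin, read 0.235, 0.370, 0.171 and 0.240, higher in hetero-KO at both ages, with a genotype difference of 0.58 ± 0.08 (SE; limma, adjusted p = 0.193). Adm, which encodes adrenomedullin, read 0.183, 0.125, 0.136 and 0.182, and so took opposite directions at the ages. The partner Ramp1, which makes Calcrl a CGRP receptor, differed between the genotypes by 0.20 and 0.07, and Ramp2, which makes it an adrenomedullin receptor, by -0.03 and 0.03.

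Ramp3, the other adrenomedullin partner, was the 1 gene of 8 tested in this list that passed for age, where 0.665% of all genes fell. It read 6.43, 4.15, 1.27 and 1.40, an age difference of -1.96 ± 0.19 (SE, log2; adjusted p by limma = 0.0384). Thalamus and habenula markers moved with it: their summed level was 29.0, 24.1, 10.5 and 11.3, with Gbx2 not well above background at 18 months. Their part in the Ramp3 fall was not tested. Calcr was not well above background on any array, and none of the list was called for genotype.

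Endothelial markers, as blood vessels express Calcrl, were set beside it in each comparison of 2 arrays. Of 12, 11 were below 0 for hetero-KO against WT at 4 months, with a median of -0.23 beside -0.12 for Calcrl, and 11 were below 0 for age in WT, with a median of -0.30 beside -0.31. At 18 months the genotype median was 0.05 beside 0.22, and the age median in hetero-KO was 0.05 beside 0.04. Pecam1, an endothelial adhesion molecule, was called lower in hetero-KO at 4 months (-1.02), where 1.33% of all genes were called in either direction. None of the 12 passed limma's test for genotype or age. Their summed level was 29.0, 26.8, 27.1 and 30.1, and its part in the Calcrl values was not tested.

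The relatives of Csf2rb2 include Csf2rb, the shared beta chain of the receptors for interleukin-3, interleukin-5 and GM-CSF. Csf2rb read 0.107, 0.105, 0.147 and 0.191, an age difference of 0.66 ± 0.13 (SE; limma, adjusted p = 0.0748). Its probes disagreed: A_52_P664853, also measured on all 4 arrays, gave age differences of 0.13 in WT and 0.16 in hetero-KO, against 0.46 and 0.86 for the probe used, A_52_P52618. That probe shares 28 of 31 aligned bases with the Csf2rb2 probe, and another Csf2rb probe is annotated to both genes, so the signals of these related genes may not be fully separate. The receptor subunits Csf2ra, Il3ra and Il5ra and the kinase Jak2 differed between the genotypes by 0.05, 0.07, -0.28 and 0.00, and of 8 genes tested none passed for genotype or age. The ligands Csf2 and Il5 were not well above background on any array, and Il3 was dim, with levels of 0.00865 to 0.0146.

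Microglia markers moved with the age difference of Csf2rb2 and Csf2rb. All 11 were above 0 for age and 9 rose by limma's test, where 1.57% of all genes rose. The median of the list was 0.52. Trem2, a receptor of activated microglia, read 2.39, 2.44, 3.95 and 4.73. At 18 months all 11 were also higher in hetero-KO, with a median of 0.24 and none called, beside 0.06 for Csf2rb2. For Csf2rb the probes took opposite signs there, 0.37 for A_52_P52618 and -0.11 for A_52_P664853. The summed level was 75.9, 73.4, 89.3 and 99.8, and its part in the age differences of Csf2rb2 and Csf2rb was not tested.

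**Figure D5:**
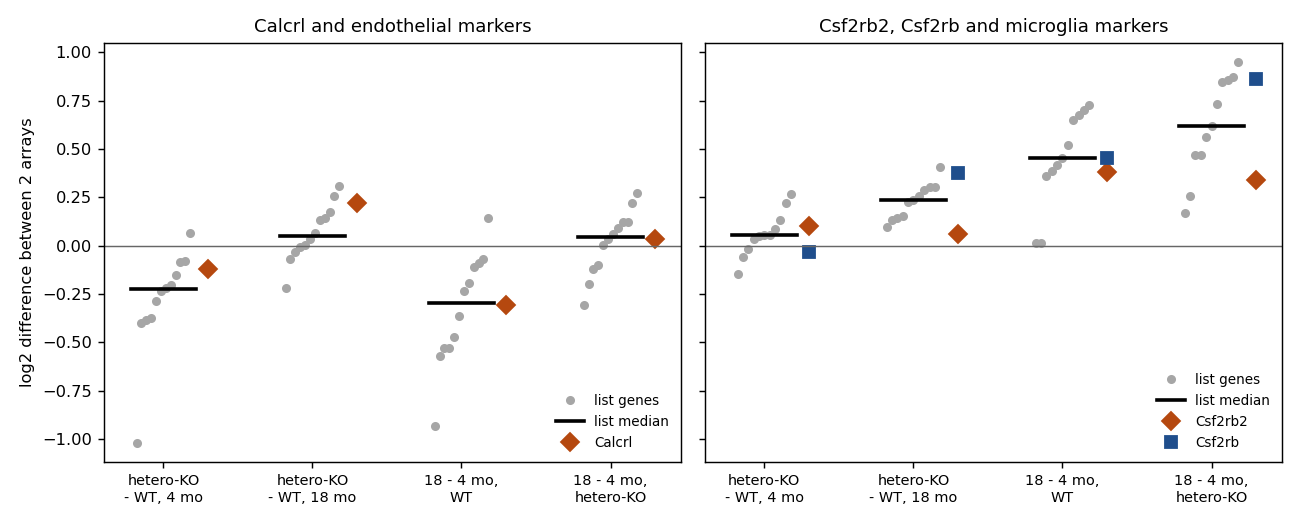
Log2 differences in the 4 comparisons of 2 arrays for Calcrl beside 12 endothelial markers (left) and for Csf2rb2 and Csf2rb beside 11 microglia markers (right); grey points are single markers and black bars their medians. Calcrl lies at -0.31 where the endothelial median is -0.30 (age in WT), and Csf2rb2 lies below the microglia median for age in both genotypes.

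Around Ajap1, the GABA-B receptor and its partners were read next. Gabbr1, a receptor subunit with the sushi domains that Ajap1 binds in its longer form, read 14.1, 13.7, 14.6 and 14.8, and Pianp, a transmembrane relative of Ajap1 that binds the same receptor, 5.21, 5.29, 5.58 and 5.95. None of 8 genes was called in any comparison, with a median genotype difference of 0.04. The auxiliary subunit Kctd8 read 0.272, 0.262, 0.189 and 0.142, an age difference of -0.70 ± 0.11 (SE; limma, adjusted p = 0.0577). Of 8 adherens junction genes, Cdh1, which encodes E-cadherin, was called lower in hetero-KO at 4 months, with levels of 0.0279 and 0.0137. It was also called higher with age in hetero-KO, by 1.40. Over all genes 1.33% and 2.2% were called in these comparisons, in either direction. None of the 8 junction genes passed limma's test. Ctnnb1, which encodes beta-catenin, and Cdh2, which encodes N-cadherin, differed between the genotypes by -0.02 and 0.05.

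Rp58 binds DNA at a motif with the core ACATCTG, and the promoters of 3 members were searched for these letters on both strands; that of Calb2 was not searched. The RefSeq promoters of Calcrl, Csf2rb2 and Ajap1 (250 bases before to 50 after the start, GRCm38.p6) were matched by symbol, and 0 of 3 held the motif. It occurs in 4.43% of all 32851 promoters of that table. At so low a share, 0 of 3 is the likely count for any 3 promoters, and nothing about the members is read from it.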

How the data were processed

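Total RNA of the hippocampus, mixed from 3 samples per group per the labels, was read on 4 one-colour (Cy3) Agilent arrays of 62976 spots. Per the file headers and the submitters' processing notes, the deposited intensity values came from Agilent Feature Extraction 11.5.1.1, which subtracts background within each array; probe positions are of build mm9. The authors' value table holds a ratio of each probe's signal to about the array's 75th percentile; its making is not described in the labels or headers. Its column medians were 0.107, 0.103, 0.0998 and 0.0987 (WT and hetero-KO at 4 months, then at 18 months).

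From the scanner files, control and outlier spots were left out, the processed signal was divided by the array's 75th percentile, and log2 was taken. Spots of a probe were averaged, a probe counted as measured if 50% or more of its spots passed the scanner's call of well above background, and a gene took its probe with the highest mean level. Of 56605 probes, 32994 were matched to RefSeq by accession, which changed 1535 symbols. Comparisons of 2 arrays were called at 2-fold where both arrays measured the gene. limma 3.58.1 (R 4.3.3) fitted genotype and age additively, with a variance trend and 1 residual degree of freedom, on 28855 genes measured on at least 2 arrays; p-values were adjusted over all of them by Benjamini-Hochberg at 0.05. Each group has 1 pool, so the error in this fit comes from how the genotype difference changes with age and from the trend over genes. It measures neither the spread between pools of a group nor that between mice. The fit was tested on simulated data.

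The genes named are the members, Zbtb18, the genes of fixed lists and, for a member that varied by at least 1 (log2), the 5 nearest genes in pattern; the sex-linked genes were added after the data were seen. Members, lists and tests were chosen with earlier results of these data known. The alternatives were another background correction, 2 other scalings, other filters, the mean of a gene's probes, the authors' table, and fits without the variance trend or without the other factor.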

Additional observations from a re-analysis of the deposited data

Results flagged for a closer look

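The age difference of Calb2 in hetero-KO less that in WT was -2.15 (log2), since Calb2 differed with age by 0.36 in WT against -1.78 in hetero-KO. It stands out because the genotypes moved in opposite directions, with 1 array each. The WT direction depends on the processing: the age difference in WT was -0.13 with the mean of the gene's 3 probes and -1.32 in the authors' deposited table. The difference between the genotypes was not tested, as no array is left to estimate an error. The young and old hetero-KO pools also differed in Xist and the Y-linked genes, so age and sex cannot be told apart there.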

How the results depend on the processing

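Of 184 values of the members under the alternatives, 13 took the other sign, 10 of them in the authors' deposited table. The other 3 were Calb2 for age in WT as the mean of its probes (-0.13 against 0.36; -1.32 in the authors' table) and Ajap1 at 18 months, near 0, with the mean of probes and after quantile normalization. Calb2 at 18 months (-2.37) was -1.66 with normexp background correction and -1.62 as the mean of its probes, which include the dim one, and 0.033 in the authors' deposited table, the 1 alternative that ended the call (0 members called). For age in hetero-KO (-1.78) it was -1.15 with normexp and -1.06 in the authors' table. The authors' table called 2 members for age in WT, 2 for age in hetero-KO and 3 by limma for age: Calb2 (-1.19), Calcrl (-0.81) and Csf2rb2, reversed at -1.20. Its genotype values for Calcrl and Csf2rb2 changed sign too, at -0.069 and -0.051, as did those of both genes at 18 months (-0.013 and -0.20) and for age in hetero-KO (-0.75 and -1.35), and Csf2rb2 for age in WT (-1.05). With normexp 1 member passed for age, Ajap1 (adjusted p = 0.0454; the range over the other 8 settings reached 0.318). The cause was not tested, except that the table's 18-month columns are other values. Genes called numbered 374, 314, 448 and 603 for the pairs (4 months, 18 months, age in WT, age in hetero-KO), and 3 and 645 for genotype and age. With normexp they numbered 96, 66, 132, 207, 14 and 1491, and 71.9% of calls at 4 months were higher against 52.1%. With no filter on dim probes they numbered 2124, 2118, 2290, 2688, 0 and 0, with 39.5% higher at 4 months. The authors' table gave 2485 and 2135 for the age pairs, 8 for genotype (12.5% higher against 100%) and 9874 for age (46.5% higher against 70.2%). For genotype, 10 were called with genes measured on all 4 arrays (80% higher), 1 with the mean of probes, 1 without the other factor and 0 without the variance trend. For age, 167 were called after quantile normalization (30.5% higher), 417 with the array's median, 14 with the mean of probes (28.6% higher), 129 without the other factor (45.7% higher) and 0 without the trend. No scaling moved the median of all genes by over 0.1. With 1 array per group no replicate could be left out. No paired analysis was possible because each group has 1 replicate. Calb2 was dim, yet its 2 measured probes were well above background on every array.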
